A study of Mus musculus with 2 samples.

Results

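The genes described here are 32 transcripts of sugar breakdown and of the response to low oxygen, taken from the 14654 genes of the deposited count table. They were picked by name, with earlier results of these data known: 16 act in glycolysis (Slc2a1, Hk1, Hk2, Gpi1, Pfkl, Pfkp, Pfkfb3, Aldoa, Tpi1, Gapdh, Pgk1, Pgam1, Eno1, Pkm, Ldha and Slc16a3) and 16 are known as targets of the hypoxia response (Pdk1, Bnip3, Bnip3l, Ndrg1, Adm, Ankrd37, Ero1l, P4ha1, P4ha2, Mif, Ddit4, Mxi1, Kdm3a, Higd1a, Ak4 and Car9). The cells came from YUMMER1.7 tumors, which grow from a Braf-mutant mouse melanoma line, 11 days after engraftment under the skin of 8-week-old male C57BL/6 mice. The hosts were wild type (WT) or Siah2-/-, a germline loss of the ubiquitin ligase Siah2, while the tumor cells were the same line in both. Live CD45+ cells were sorted, CD45- cells were mixed back, at a ratio on which the sources differ, and 1 droplet library was made per genotype. There is therefore no replicate of either genotype, no test across samples could be run, and how many tumors went into each library was not stated.

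In glycolysis, glucose enters through transporters such as Slc2a1, is phosphorylated by hexokinases and is broken down stepwise to pyruvate, which Ldha turns into lactate for export through Slc16a3. When oxygen falls, prolyl hydroxylases stop marking Hif1a for destruction, and HIF bound to Arnt raises transcription of most of these enzymes and of genes that limit mitochondrial activity, remove mitochondria or slow growth. Siah ligases are known to target some of these prolyl hydroxylases for degradation. In tumors, macrophages far from vessels are known to express hypoxia-induced genes, among them Vegfa.

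HIF binds DNA at a short core, ACGTG or GCGTG. The 250 bases before the annotated start held one of these on either strand in 38.6% of all 32851 start sites of the RefSeq table (GRCm38.p6), counting the palindrome CACGTG on each strand. Of the 46 start sites listed for 30 of the 32 genes, 36 (78.3%) held one, and 27 of the 30 genes had at least 1 such site, against 41.5% of all 27025 genes in the table. The 3 without were Gpi1, Tpi1 and Mif. The table listed no start site for Bnip3l or Ndrg1, so these were not searched. A match is a description of letters and not a binding site. The genes were picked in part as known targets of the hypoxia response, so the higher share is no independent finding. Genes with more listed starts also had more chances to hold a core. The sequences below are those of Pgk1, Ddit4 and Slc16a3, which were among the 5 genes with the largest differences between the libraries in macrophages, and of Car9, whose interval there includes 0. Each runs 5′ to 3′ on the strand of the gene and ends at the base before the start, with the HIF core in capitals. In Pgk1 (chrX:106186850-106187099, plus strand) the cores began 150 and 131 bases before the start, in Ddit4 (chr10:59951771-59952020, minus strand) 187 and 115 bases before it, in Slc16a3 (chr11:120948817-120949066, plus strand) 27 and 14 bases before it, and in Car9 (chr4:43506776-43507025, plus strand) 18 bases before it. These starts are those of RefSeq. The GENCODE annotation begins Slc16a3 at base 120948480 and Car9 at base 43506966, which places the cores shown for both within the gene.
Pgk1: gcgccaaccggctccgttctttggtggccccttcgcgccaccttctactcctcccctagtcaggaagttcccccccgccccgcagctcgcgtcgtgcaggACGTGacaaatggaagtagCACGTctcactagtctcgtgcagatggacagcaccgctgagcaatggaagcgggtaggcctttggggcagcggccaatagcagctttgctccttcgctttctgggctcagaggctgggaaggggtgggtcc
Ddit4: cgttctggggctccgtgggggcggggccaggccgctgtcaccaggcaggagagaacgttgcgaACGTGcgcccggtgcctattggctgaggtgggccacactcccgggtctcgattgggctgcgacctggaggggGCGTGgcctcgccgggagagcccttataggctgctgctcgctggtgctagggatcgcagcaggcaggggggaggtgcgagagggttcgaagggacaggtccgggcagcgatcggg
Slc16a3: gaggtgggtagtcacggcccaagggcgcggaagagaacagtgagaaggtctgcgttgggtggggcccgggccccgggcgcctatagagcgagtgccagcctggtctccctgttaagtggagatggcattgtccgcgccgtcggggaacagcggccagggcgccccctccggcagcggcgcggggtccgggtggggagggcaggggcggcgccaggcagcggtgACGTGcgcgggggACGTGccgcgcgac
Car9: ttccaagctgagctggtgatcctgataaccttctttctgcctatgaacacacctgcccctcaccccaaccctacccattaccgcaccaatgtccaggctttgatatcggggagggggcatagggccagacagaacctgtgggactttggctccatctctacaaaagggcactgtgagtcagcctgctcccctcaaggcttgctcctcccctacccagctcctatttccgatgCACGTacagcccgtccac

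The 4512 WT and 5563 Siah2-/- cells held 64793053 and 59090284 unique molecules (UMIs), with a median of 11439.5 and 8700.0 per cell, and 34 cell barcodes occurred in both libraries. Cells were assigned to classes by marker genes that include none of the 32 genes, and 16.8% of WT and 19.3% of Siah2-/- cells fell in no class. Macrophages are marked by genes such as Csf1r, Adgre1 and Cd68; C1qa, C1qb and C1qc, which were left out of the rule, summed to 16832 and 10829 CPM (UMIs of a gene scaled to 1000000 UMIs of the class) in them. The CD45-negative class was set by fibroblast or tumor markers, with Hmga2 and Sox10 among the latter, and by little Ptprc, the gene of CD45. In it 85.9% and 87.9% of cells had a UMI of Hmga2, shares that the rule partly fixes. Sox10 was at 0, so the melanocyte markers on the list do not identify these cells. Siah2 itself, a transcript read at its 3' end, was at 12.3 CPM in WT and 11.1 CPM in Siah2-/- macrophages (log2 ratio -0.15, 95% interval -0.40 to 0.10). Which part of the gene was deleted was not stated, so this value does not check the genotype label. Immediate early and heat shock genes, which rise during tissue dissociation, had a median log2 ratio above 0 in every class, at 0.74 in macrophages, 0.91 in CD8 T cells, 0.77 in NK cells and 0.74 in CD45-negative cells. Their part in the results below was not tested.

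The levels of the 32 genes were compared between the libraries class by class. In macrophages (1947 WT and 2274 Siah2-/- cells) the genes were higher in the Siah2-/- library nearly throughout: of the 31 with at least 50 UMIs over both libraries, 18 were at least 1.5-fold higher and 0 at least 1.5-fold lower, against 8.42% of all 10705 genes higher and 7.43% lower. Their median log2 ratio was 0.68, and that of all genes was -0.05. Together they made up 0.928% of WT and 1.46% of Siah2-/- macrophage UMIs. In CD45-negative cells 12 of 31 were higher (8.60% of all genes) with a median of 0.51, whereas the medians were 0.26 in dendritic cells (DC), 0.20 in CD8 T cells, 0.12 in NK cells and -0.11 in CD4 or Foxp3 T cells. Leaving out Gapdh, Pgk1 and Eno1, which are set apart for reads that copies may share, gave medians of 0.66 in macrophages, 0.48 in CD45-negative cells, 0.01 in DC, 0.20 in CD8 T cells, 0.04 in NK cells and -0.14 in CD4 or Foxp3 T cells. Intervals given here are exact 95% intervals of counting error, which do not hold the variation between mice, and differences between classes were not tested.

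**Figure D1:**
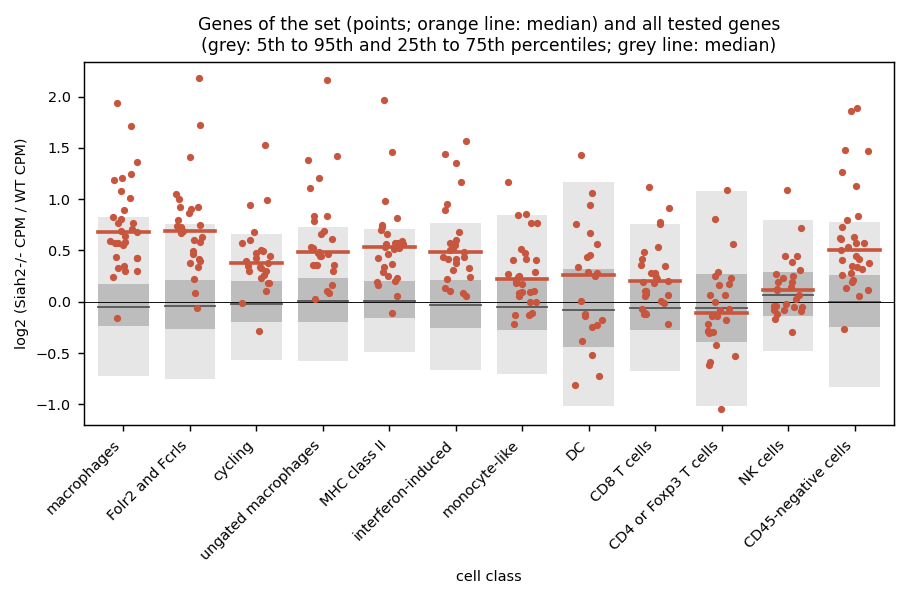
Log2 ratio of CPM in the Siah2-/- over the WT library (y axis) in 12 cell classes (x axis), with each of the genes that had at least 50 UMIs as a point and their median as an orange line. Grey boxes hold the 5th to 95th and the 25th to 75th percentiles of all tested genes. The orange line lies above the grey box of quartiles in macrophages (0.68), Folr2 and Fcrls macrophages (0.69) and CD45-negative cells (0.51). It also lies above it in cycling (0.38), interferon-induced (0.48), MHC class II (0.53) and ungated (0.48) macrophages, and barely so in CD8 T cells (0.20). In monocyte-like macrophages (0.23), DC (0.26), NK cells (0.12) and CD4 or Foxp3 T cells (-0.11) it lies inside.

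Genes of glucose uptake and of the first steps were higher in Siah2-/- macrophages, with 4 of 7 past 1.5-fold (8.42% of all genes) and a median log2 ratio of 0.69. Slc2a1, the main glucose transporter of many cells, was at 68.6 CPM (65.2 to 72.1) in WT and 127 CPM (123 to 132) in Siah2-/- macrophages, a log2 ratio of 0.89 (0.80 to 0.98). Hk2, the inducible hexokinase, went from 72.0 to 128 CPM (0.83, 0.74 to 0.92), whereas Hk1, the constitutive hexokinase, went from 27.8 to 37.2 CPM (0.42, 0.27 to 0.57). The intervals of the pair do not overlap. Pfkfb3, which makes the activator of phosphofructokinase, had a ratio of 0.77, and the phosphofructokinase subunits Pfkp and Pfkl had ratios of 0.69 and 0.57. Gpi1, which converts glucose 6-phosphate to fructose 6-phosphate, was at 377 and 505 CPM (0.42). Hk1, Gpi1 and Pfkl did not reach 1.5-fold.

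Of the enzymes from aldolase to pyruvate kinase, 6 of 7 were at least 1.5-fold higher (8.42% of all genes). Aldoa, which splits the 6-carbon sugar, was at 885 CPM in WT and 1552 CPM in Siah2-/- macrophages (0.81, 0.79 to 0.84). Pkm, the pyruvate kinase of most tissues, was at 1257 and 2049 CPM (0.71), the isomerase Tpi1 at 512 and 798 CPM (0.64), and the mutase Pgam1 at 426 and 636 CPM (0.58), just under 1.5-fold. Gapdh (2053 and 3099 CPM, 0.59), Eno1 (829 and 1408 CPM, 0.76) and Pgk1 (71.1 and 233 CPM, 1.71, 1.63 to 1.80) were set apart by rule, since near-identical copies might share their reads. Over the last 300 bases of 1 transcript each, 123 other annotated genes matched Gapdh over at least 90 bases at 95% identity, and 1 matched Eno1, while none matched Pgk1. Mif had 2 such matches.

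Lactate and pyruvate handling was uneven. Ldha, which makes lactate, was at 1102 and 1384 CPM, a log2 ratio of 0.33 (0.30 to 0.35) that was the smallest of the 16 glycolysis genes. Slc16a3, the monocarboxylate transporter that exports lactate, was at 125 CPM (120 to 129) in WT and 289 CPM (282 to 295) in Siah2-/- macrophages, a ratio of 1.21. Pdk1, which inhibits pyruvate dehydrogenase, was at 26.0 and 30.7 CPM (0.24, 0.08 to 0.40). As folds, the transcript of the exporter differed 2.31-fold, that of Ldha 1.26-fold and that of Pdk1 1.18-fold.

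The hypoxia-induced genes spread more widely than the glycolysis genes, from -0.15 to 1.94 over the 15 tested, with 7 of them at least 1.5-fold higher (8.42% of all genes). Ndrg1, a stress-induced cytoplasmic protein, was at 12.6 CPM (11.1 to 14.1) in WT and 48.1 CPM (45.4 to 51.0) in Siah2-/- macrophages (1.94, 1.75 to 2.13), the largest ratio of the set. Ddit4, an inhibitor of the growth kinase mTORC1, was at 19.2 and 49.5 CPM (1.37), and Ero1l, an oxidase of protein folding in the endoplasmic reticulum, at 28.3 and 64.6 CPM (1.19). Bnip3, a receptor for the removal of mitochondria, was at 76.9 and 162 CPM (1.08), while its paralog Bnip3l was at 72.4 and 108 CPM (0.57). Mxi1, an antagonist of Myc, was at 11.3 and 22.8 CPM (1.01), and the cytokine Mif at 727 and 1166 CPM (0.68). Ak4, a mitochondrial adenylate kinase, passed 1.5-fold on 15 and 38 UMIs (1.24, 0.34 to 2.21).

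The remaining hypoxia-induced genes differed less. Ankrd37 (29.7 and 43.5 CPM, 0.55), Higd1a, a small mitochondrial protein (212 and 287 CPM, 0.44), the histone demethylase Kdm3a (8.46 and 10.4 CPM, 0.30) and the collagen prolyl hydroxylase P4ha1 (65.5 and 80.7 CPM, 0.30) were higher by less than 1.5-fold. P4ha2 had 33 and 45 UMIs and an interval from -0.33 to 1.04. Car9, a carbonic anhydrase of the cell surface that is widely used as a hypoxia marker, was at 10.9 CPM in WT and 9.81 CPM in Siah2-/- macrophages (-0.15, -0.42 to 0.11). Adm, a vasodilator peptide, had 1 UMI in the macrophages of each library and was not tested. The intervals of P4ha2 and Car9 thus include 0, and at 1 UMI in each library nothing can be read from Adm.

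**Figure D2:**
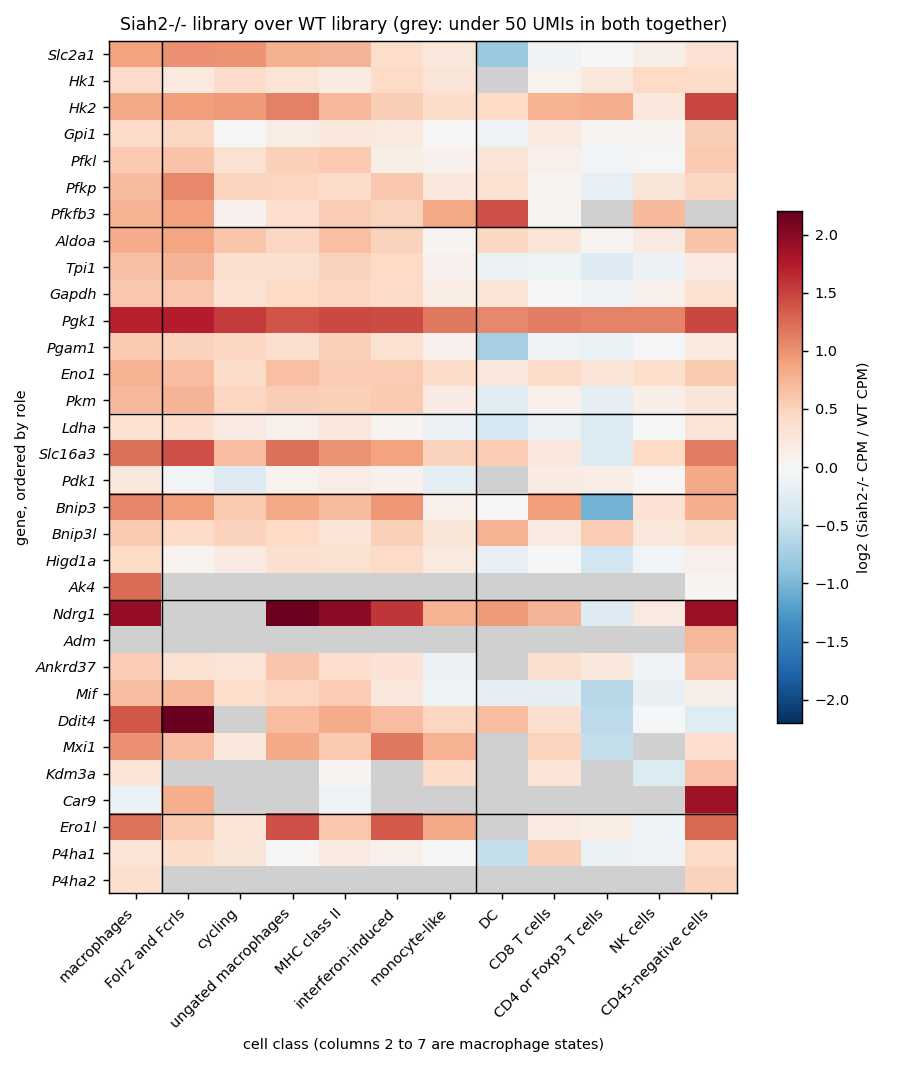
Log2 ratio of CPM in the Siah2-/- over the WT library (color scale) for each of the 32 genes (rows, ordered by role) in 12 cell classes (columns); grey marks genes with fewer than 50 UMIs over both libraries. The row of Pgk1 is red in every column (1.06 to 1.72), and the column of Folr2 and Fcrls macrophages (median 0.69) is redder than that of monocyte-like macrophages (0.23).

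Other genes of the same pathways were compared beside the 32, as lists of pathway members with Egln1 and Egln3 in both of the first. Of 31 further glycolysis and hypoxia genes, 25 had enough UMIs in macrophages, 11 were at least 1.5-fold higher and 0 lower, with a median of 0.48; the shares over all genes were the 8.42% and 7.43% given above, and hold for each list in this paragraph. Vegfa, the angiogenic factor, was at 10.2 and 42.8 CPM (2.07), Hilpda, a lipid droplet protein, at 25.7 and 112 CPM (2.13), and the prolyl hydroxylase Egln3 at 6.58 and 21.8 CPM (1.73). Among 10 tested genes of oxygen sensing the median was 0.19: Hif1a was at 76.6 and 133 CPM (0.80, 0.71 to 0.88), while Vhl (0.07) and Arnt (0.20) were under 1.5-fold and Siah1b, a close relative of Siah2, was lower at 2.64 and 1.29 CPM (-1.03, -1.71 to -0.38). Of 15 genes of the pentose phosphate pathway and of mitochondrial fuel use, 0 passed 1.5-fold in either direction, which is near those shares, and the median was -0.07. In the same macrophages 11 of 15 dissociation stress genes were higher (median 0.74), 11 of 12 cycling genes were lower (median -0.98), and T cell receptor complex genes were at 30.0 CPM in WT and 63.4 CPM in Siah2-/- cells. Markers of other cells were also counted there: 3 neutrophil genes summed to 57.3 and 133 CPM, with S100a8 found in 1.95% and 15.3% of macrophages, 3 NK cell genes to 12.4 and 22.3 CPM and 3 endothelial genes to 16.2 and 31.2 CPM, and none of these was at 0. The neutrophil genes were at 34.0 and 166 CPM in MHC class II cells and at 32.6 and 182 CPM in the ungated cells described below. Their part in the higher levels was not tested.

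The macrophages of the libraries differed in make-up. Each cell was placed in 1 state by markers that include none of the 32 genes, and 31.7% of WT and 48.3% of Siah2-/- macrophages passed the markers of more than 1 state. Such cells went to the first state they passed in a fixed order, with MHC class II last. The MHC class II share below thus counts only cells left by the earlier states. Over all macrophages, 4 MHC class II genes summed to 23347.5 CPM in WT and 25024.5 CPM in Siah2-/-. Folr2 and Fcrls cells were 13.8% of WT and 3.78% of Siah2-/- macrophages, cycling cells 9.45% and 3.47%, interferon-induced cells 15.1% and 14.1%, monocyte-like cells 10.3% and 16.4%, MHC class II cells 35.7% and 24.5%, and cells that passed no state's markers (ungated) 10.8% and 5.89%. These states do not hold all macrophages, and the values over all macrophages given above include the differences in make-up.

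The states were also compared within each library (panels of level by macrophage state). In WT, the median log2 ratio over the Folr2 and Fcrls state was 0.91 in monocyte-like, 0.53 in interferon-induced, 0.35 in MHC class II, 0.28 in ungated and 0.14 in cycling cells. In Siah2-/- the same medians were 0.52, 0.41, 0.22, 0.10 and -0.13, so cycling cells lay above the Folr2 and Fcrls state in WT and below it in Siah2-/-. Slc2a1 ran from 26.4 CPM in WT Folr2 and Fcrls cells through 66.3 CPM in MHC class II to 134 CPM in monocyte-like cells. In Siah2-/- the values of Slc2a1 were 53.1 CPM, 111 CPM and 160.2 CPM, so its ratio between libraries was 1.01, 0.75 and 0.25. Bnip3 was at 48.4 and 92.1 CPM in Folr2 and Fcrls cells and at 147 and 158 CPM in monocyte-like cells.

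**Figure D3:**
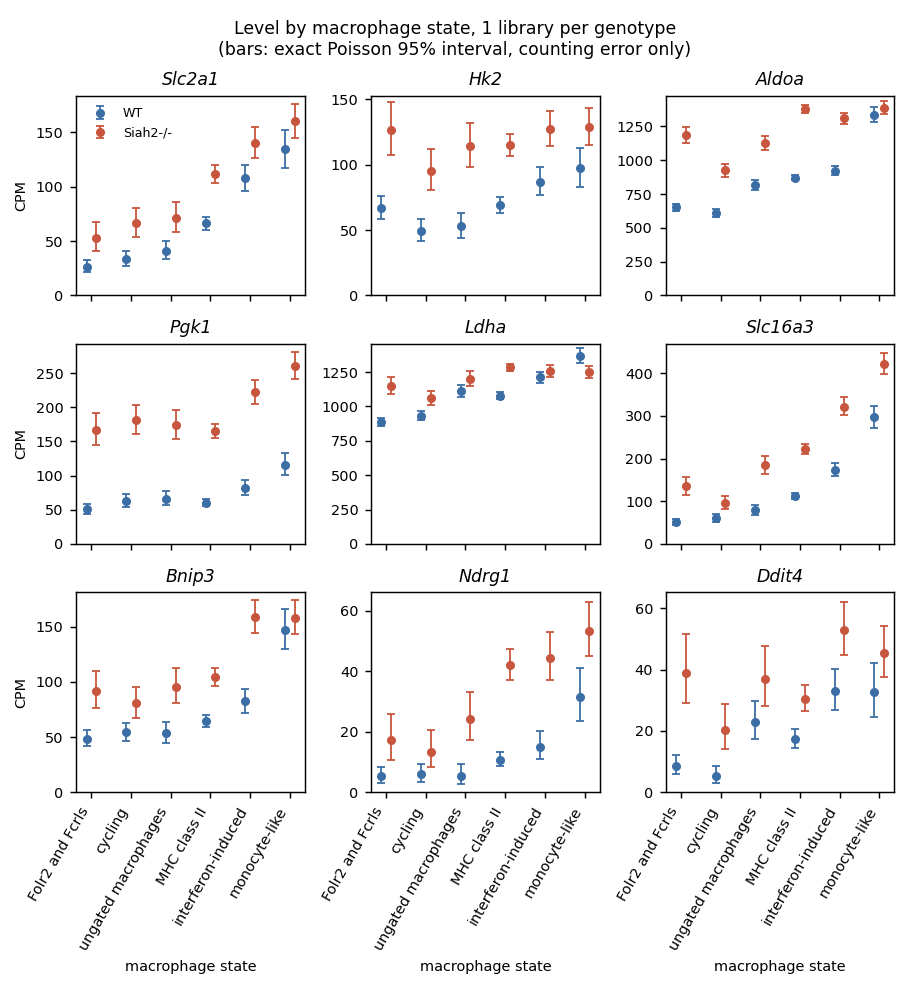
CPM (y axes, from 0) of 9 genes in 6 macrophage states (x axis) of the WT (blue) and Siah2-/- (orange) libraries, with bars for the exact Poisson 95% interval. Aldoa and Bnip3 are at like levels in the monocyte-like state (1336 and 1390, 147 and 158 CPM), whereas Pgk1 (116 and 260.4 CPM) and Ndrg1 (31.4 and 53.4 CPM) stay apart.

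Between libraries, the median ratio ran from 0.23 to 0.69 over the 6 states. In Folr2 and Fcrls macrophages 17 of 27 genes were at least 1.5-fold higher and 0 lower (7.93% and 8.70% of all genes), with a median of 0.69, led by Ddit4 at 8.63 and 39.0 CPM (2.18), Pgk1 at 50.7 and 167 CPM (1.72) and Slc16a3 at 50.7 and 135 CPM (1.41). The WT value of Ddit4 rests on 31 UMIs, and free RNA would give 5.69 of its 8.63 CPM and 9.35 of the 39.0 CPM in Siah2-/-; after subtraction its ratio was 3.34. This state was not alike in the libraries: 4 MHC class II genes summed to 8420 CPM in its WT and 19114 CPM in its Siah2-/- cells, and their part in the ratios was not tested. In MHC class II cells 9 of 29 were higher (7.10% of all genes, and 3.58% lower) with a median of 0.53, and Ndrg1 had the largest ratio there (10.8 and 42.0 CPM, 1.96). Interferon-induced cells had 8 of 27 higher and 0 lower (8.32% and 6.67% of all genes), with a median of 0.48. Ungated cells had 11 of 27 higher and 0 lower (7.88% and 4.87%), with a median of 0.48, and 8 higher with a median of 0.34 after free RNA was subtracted. The Gzma and Gzmb sum behind that estimate was 68.9 CPM in WT and 432 CPM in Siah2-/-, with medians over cells of 0 and 1.24 per 10000. Cycling cells had 5 of 25 higher and 0 lower (6.41% and 4.63%), with a median of 0.38, and monocyte-like cells 5 of 28 higher and 0 lower (10.0% and 7.90%), with a median of 0.23. In monocyte-like cells Aldoa (1336 and 1390 CPM, 0.06), Tpi1 (0.09), Gpi1 (0.00) and Bnip3 (0.10) were close between libraries, while Ero1l (40.03 and 71.7 CPM, 0.84) and Ndrg1 (31.4 and 53.4 CPM, 0.76) were not. In MHC class II and these other states, 0 genes were at least 1.5-fold lower.

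Counted cell by cell, the quartiles of macrophages were shifted as well as the median. After each cell was thinned to 4800 UMIs, the 13 glycolysis genes other than Gapdh, Pgk1 and Eno1 summed to a median of 20 UMIs in WT macrophages (quartiles 14 and 31) and 35 UMIs in Siah2-/- macrophages (23 and 52). Before thinning, the WT median was 47 UMIs. In Folr2 and Fcrls cells the medians were 15 and 25.5 UMIs, and in MHC class II cells 20 and 30.5 UMIs. Monocyte-like cells had a median of 31 UMIs in each library but wider quartiles in Siah2-/- (17 and 53, against 22 and 47 in WT). The 16 hypoxia-induced genes summed to 5 UMIs in WT and 9 UMIs in Siah2-/- macrophages. The single cell with most UMIs held at most 4.43% of the macrophage UMIs of any gene with over 200 UMIs in its library, the value of Ddit4 in WT.

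**Figure D4:**
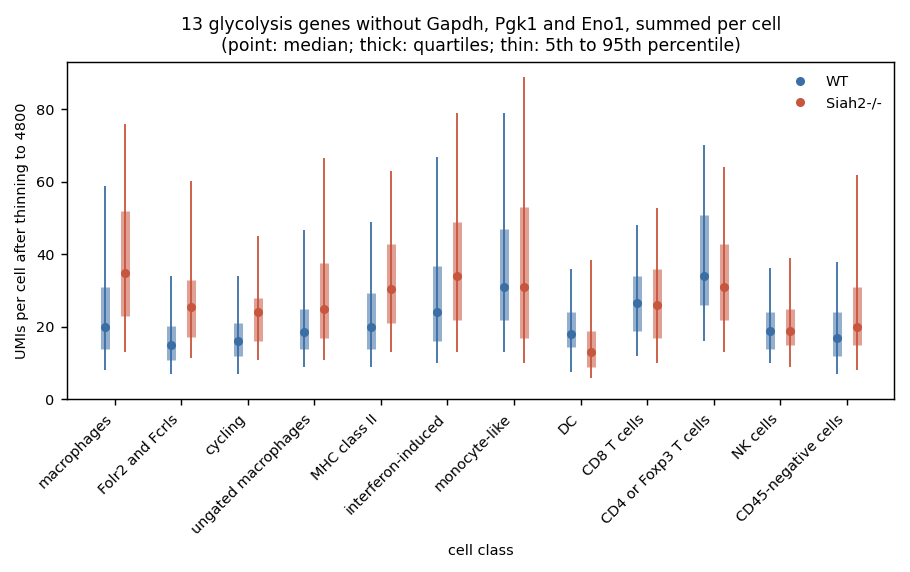
UMIs per cell of 13 glycolysis genes after thinning to 4800 UMIs (y axis, from 0) in 12 cell classes (x axis) of the WT (blue) and Siah2-/- (orange) libraries, with the median as a point, quartiles as a thick bar and the 5th to 95th percentiles as a thin line; cells are not replicates. Medians were 20 and 35 in macrophages, 31 and 31 in monocyte-like cells and 19 and 19 in NK cells.

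CD45-negative cells numbered 766 and 141, or 17.0% of WT and 2.53% of Siah2-/- cells, shares that depend on the mixing and are not read as a result. They can hold tumor cells, of 1 genotype in both libraries, and host stroma, which was WT or Siah2-/-, and the gate does not tell them apart: Crabp1 was found in every cell, and Dcn, a gene of fibroblasts, in 78.3% and 90.8%. Of 31 genes 12 were at least 1.5-fold higher and 0 lower in the Siah2-/- library (8.60% and 8.89% of all genes). Ndrg1 was at 12.3 CPM (10.8 to 13.9) and 45.4 CPM (38.8 to 52.9), a ratio of 1.89 that was near the macrophage value, and Pgk1 at 101 and 279.9 CPM (1.47). Car9, whose interval in macrophages included 0, was at 7.70 CPM in WT and 27.9 CPM in Siah2-/- cells (1.86, 1.48 to 2.23), and Hk2 at 20.97 and 58.3 CPM (1.47). Ero1l (19.9 and 47.9 CPM, 1.27), Pdk1 (25.3 and 45.1 CPM, 0.84) and Bnip3 (47.3 and 82.1 CPM, 0.79) were higher, whereas Ddit4 was at 86.6 and 72.2 CPM (-0.26, -0.45 to -0.07). Mif (0.13), Higd1a (0.11) and Ak4 (0.06) were close between the libraries.

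Few Siah2-/- cells stood behind some of these values. A single cell held 57.1% of the 14 Adm UMIs, 28.4% of the 102 Car9 UMIs and 26.3% of the 175 Ero1l UMIs of the Siah2-/- CD45-negative cells. With the cell holding most UMIs of each gene left out of each library, 8 genes were at least 1.5-fold higher in place of 12, and the median was 0.40 in place of 0.51. Slc16a3, at 3.62 and 7.93 CPM, was near the 2.29 and 5.33 CPM that free RNA alone would give, as estimated from C1q transcripts. Cycling genes were lower in the Siah2-/- cells of this class for 10 of 12 (median -1.52), and their part in the higher levels was not tested.

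Dendritic cells were few, with 71 WT and 99 Siah2-/- cells, and 22 genes could be tested. Of these 5 were at least 1.5-fold higher and 2 lower, against 15.2% and 16.5% of all genes. Pfkfb3 was at 15.3 and 41.2 CPM (1.43), Pgk1 at 59.3 and 124 CPM (1.06) and Ndrg1 at 54.2 and 104 CPM (0.94), while Slc2a1 was at 61.3 and 35.0 CPM (-0.81) and Pgam1 at 431 and 262 CPM (-0.72). The cells did not have the same make-up: Ccr7 and Fscn1 summed to 1229.7 CPM in WT and 4229 CPM in Siah2-/-, the C1q genes to 1222 and 228 CPM, and Xcr1, a marker of conventional type 1 DC, was at 149 and 27.8 CPM. Genes found in most CD45-negative cells were also lower in Siah2-/- DC, with Hmga2 at 63.4 and 15.4 CPM, Col1a2 at 71.6 and 17.5 CPM and Crabp1 at 267 and 144 CPM. Of 11 cycling genes 9 were lower (median -1.73), and the part of these differences in the ratios was not tested. In Ccr7 and Fscn1 cells alone (15 and 47) the median over 14 genes was 0.71 with 7 higher (15.6% of all genes), and in the other DC (56 and 52) it was 0.01 with 4 of 20 higher (11.7%). Neither Slc2a1 nor Pgam1 was at least 1.5-fold lower within a subclass. Slc2a1 was at 70.6 and 53.7 CPM in the other DC (-0.40, -1.10 to 0.28) and had 3 and 6 UMIs in Ccr7 and Fscn1 cells, while Pgam1 was at 495 and 332 CPM in the former (-0.58, -0.85 to -0.32), just short of 1.5-fold and clear of 0, and at 129 and 180.2 CPM in the latter (0.49, -0.21 to 1.24). Ndrg1 was at 39.6 and 38.3 CPM in the other DC and, at 0.55, did not reach 1.5-fold in Ccr7 and Fscn1 cells. Free RNA in Ccr7 and Fscn1 cells, estimated from Gzma and Gzmb, was 0.933% of the level in empty droplets in WT and 12.99% in Siah2-/-. Gzma and Gzmb together were at 17.6 CPM in WT and 383 CPM in Siah2-/-, with medians over cells of 0 and 1.39 per 10000. The WT estimate thus rests on few UMIs. With free RNA subtracted, the median over the 14 genes was 0.44, with 5 at least 1.5-fold higher and 4 below 0. Without subtraction, the sum of 13 glycolysis genes after thinning to 4800 UMIs had a median of 10 UMIs per cell in each library. The same sum was lower in Siah2-/- over all DC, with medians of 18 UMIs in WT and 13 UMIs in Siah2-/-, and in the other DC, with 19 and 14.5 UMIs. Counted as a mean over cells, 2 of the genes were at least 1.5-fold higher and 4 lower in DC.

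Fewer of the genes differed past 1.5-fold in lymphocytes. In CD8 T cells (496 and 945) 4 of 28 genes were at least 1.5-fold higher and 0 lower, against 7.75% and 7.35% of all genes. These were Pgk1 (129.8 and 282 CPM, 1.12), Bnip3 (21.8 and 41.1 CPM, 0.91), Hk2 (11.4 and 19.6 CPM, 0.77) and Ndrg1 (10.7 and 18.1 CPM, 0.75). Most glycolysis enzymes were close, such as Gapdh (2654 and 2674 CPM, 0.01), Slc2a1 (48.2 and 45.9 CPM, -0.07) and Ldha (1674 and 1538 CPM, -0.12). In NK cells (395 and 640) the median was 0.12 against 0.06 for all genes, and 2 of 27 were at least 1.5-fold higher and 0 lower (9.15% and 3.03% of all genes), namely Pgk1 (70.6 and 149.8 CPM, 1.09) and Pfkfb3 (4.64 and 7.64 CPM, 0.72). Cycling genes were lower in Siah2-/- cells of both classes, with medians of -0.86 in CD8 T cells and -0.64 in NK cells.

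T cells with Cd4 or Foxp3 and without Cd8 (80 and 389 cells) had a ratio below 0 for 16 of 26 genes (61.5%), against 55.1% of all genes tested in this class. At 1.5-fold the counts were even, with 2 higher and 2 lower (12.8% and 14.1% of all genes). Pgk1 (149.8 and 318 CPM, 1.09) and Hk2 (21.6 and 37.7 CPM, 0.80) were higher, and Bnip3 (116 and 56.3 CPM, -1.04) and Mif (1185 and 774 CPM, -0.61) were lower. Ddit4 (248 and 166 CPM, -0.58) and Ldha (2213 and 1788 CPM, -0.31) had intervals below 0 without reaching 1.5-fold, whereas Mxi1 (-0.53, -1.44 to 0.44) rested on 15 and 36 UMIs. Foxp3, the defining factor of regulatory T cells, was at 181 CPM in WT and 88.8 CPM in Siah2-/- cells of this class, Cd4 at 114 and 513 CPM, and the gated cycling genes at 1264 and 319.7 CPM. Markers of myeloid cells summed to less in the Siah2-/- cells, with MHC class II genes at 4978 and 1273 CPM, C1q genes at 488 and 243 CPM and DC genes at 162 and 53.9 CPM, while 3 T cell receptor complex genes were at 2206 and 4408 CPM. The part of these changes in make-up was not tested.

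Pgk1 was at least 1.5-fold higher in the Siah2-/- library in each class. Its log2 ratio was 1.71 in macrophages, between 1.17 and 1.72 in the 6 macrophage states described, 1.06 in DC, 1.12 in CD8 T cells, 1.09 in CD4 or Foxp3 T cells, 1.09 in NK cells and 1.47 in CD45-negative cells. In droplets without a cell it was at 66.7 CPM in WT and 101 CPM in Siah2-/-. Free RNA would account for 4.23 of 129.8 CPM in WT and 5.50 of 282 CPM in Siah2-/- CD8 T cells. Gapdh and Eno1, set apart for the same reason, had ratios of 0.01 and 0.42 in CD8 T cells, 0.12 and 0.38 in NK cells and 0.34 and 0.57 in CD45-negative cells.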

How the data were processed

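Per the labels and the study's methods, the authors made 10x Genomics 3' v2 libraries, 1 per genotype, and counted UMIs with Cell Ranger (mm10; version not given in the sources used here). Deposited counts of whole UMIs were used, from the matrices and for the 4512 WT and 5563 Siah2-/- cells named in the authors' natural log table. The authors' count table holds 4524 and 5576 cells, and over these the 32 genes had the same counts as in the matrices. The deposited natural log table was used for cell names alone. Classes were set by marker UMIs per 10000, with thresholds chosen after the data had been seen (macrophages 8, NK and T cells 5, DC 3, MHC class II 200). Between 0 and 114 cells of each lay within 1.25 times of its threshold. Cells with T and macrophage markers together were left out as possible doublets (318 WT, 365 Siah2-/-), and no doublet caller was run. UMIs were summed per class as CPM with exact Poisson 95% intervals, and log2 ratios have exact conditional binomial intervals, with no pseudocount and no p-value. Called means past 1.5-fold with at least 50 UMIs over both libraries. Free RNA was scaled from droplets with up to 100 UMIs by Gzma and Gzmb in myeloid cells and by C1q genes elsewhere. The ratios were tested on simulated data. The 32 genes, the lists and the markers were chosen with earlier results of these data known. Each of the 32 was accounted for, and other genes were named from the lists. Of the macrophage states and of the list genes, 1 each is not reported here. Python 3.11.15, numpy 2.4.6, scipy 1.17.1 and pandas 2.3.3 were used.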

Additional observations from a re-analysis of the deposited data

Results flagged for a closer look

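In 3 cases a gene that was at least 1.5-fold higher in macrophages of the Siah2-/- library was at least 1.5-fold lower in another class, with an interval clear of 0 in each. Slc2a1 differed by 0.89 on the log2 scale in macrophages, but by -0.81 in DC. Ccr7 and Fscn1 cells, in which Slc2a1 was low (17.6 and 13.4 CPM), were 15 of 71 WT and 47 of 99 Siah2-/- DC, and in the other DC Slc2a1 was at 70.6 and 53.7 CPM (-0.40), short of 1.5-fold and with an interval that includes 0. For Bnip3 the log2 ratios were 1.08 in macrophages and -1.04 in CD4 or Foxp3 T cells. Mif stood at 0.68 in the former and at -0.61 in the latter. With 1 library per genotype, these differences between classes were not tested.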

How the results depend on the processing

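No paired analysis was possible because each genotype had 1 library. No median changed sign in macrophages, CD8 T cells, NK cells or CD45-negative cells under the alternatives run, with ranges of 0.53 to 0.73, 0.10 to 0.26, 0.04 to 0.13 and 0.40 to 0.65. In macrophages the median was 0.53 with every barcode of at least 1000 UMIs, and a planned weighting of the states to their WT shares is left out. The alternatives were run for these 4 classes and DC alone. In DC, genes past 1.5-fold higher numbered 3 without the 5% of cells with most UMIs, 2 as a mean over cells (with 4 lower), 3 without cycling cells, 9 with at least 1 UMI in each library and 0 with at least 200 UMIs, where the median was -0.13; it was -0.04 with doubled thresholds. In NK cells 1 gene was past 1.5-fold with every barcode of at least 1000 UMIs, with at least 200 UMIs, or without Gapdh, Pgk1 and Eno1. Chosen after seeing the data, leaving out the cell with most UMIs of each gene gave the CD45-negative median of 0.40. Where a value moved, the cause was not tested. With 1 library per genotype, variation between mice was not measured.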
